A study of Saccharomyces cerevisiae with 16 samples.

Results

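The regions described here lie between neighbouring genes near the ends of the 16 nuclear chromosomes of budding yeast. A region belonged to the set when it lay wholly within 30 kb of the outermost listed region edge at either end of its chromosome. The rule used position only and no insertion count. It gave 296 end regions of 4740 nuclear regions, against 4444 regions further inside, and they are spread over 32 chromosome ends with 1 to 17 regions each. Each region is named by the genes on its left and right. By a gene table of the R64 assembly, some regions also span other genes. Among those named below are GAB1/PAU4 (YLR460C), PHO4/CDC26 (YFR035C, YFR035W-A and YNCF0014C), CTP1/VBA2 (YBR292C), ADF1/PRD1 (MIC10), PRD1/KAR4 (PEX34) and PHO89/MAL33 (TYC1). Positions are given as deposited, and sacCer2 is the build in the submitters' processing notes.

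The study mapped insertions of the Ty5 retrotransposon in 16 calling-card libraries, 1 per group. All strains lacked SIR4 and carried a Sir4-tagged transcription factor under the ADH1 promoter on a plasmid, and another plasmid held a Ty5 element driven by the galactose-inducible GAL1/10 promoter. Genomic DNA was cut in 3 separate restriction digests and circularised, and the insertions were amplified by inverse PCR. The tables hold, for each region, the insertions of the library and those of a background set, whose origin is not given in the sources used here. The 4 libraries with a further deletion held the Gal4 fusion in strains with the genotypes sir4D gal4D hmoD (strain BY4742), sir4D gal4D leu3D (BY4743), sir4D gal4D sef1D (BY4744) and sir4D gal4D yrm1D (BY4745). They are called hmo1Δ, leu3Δ, sef1Δ and yrm1Δ below. The Gal4 library they are set against came from BY4741 sir4D gal4D. The other 11 libraries held Leu3, Yrm1, Yrr1, Tea1, Lys14, Cat8, Cha4, Put3, Urc2, Hal9 or Aro80 in BY4741, each lacking SIR4 and the chromosomal gene of its own factor. Strain name and deletion cannot be told apart in the 4 deletion libraries, and no value has a replicate error. Intervals are 95% intervals for counting error alone.

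Ty5 inserts by preference into silent chromatin at telomeres and at the silent mating cassettes, because its integrase is tethered by the silencing protein Sir4. Calling cards use this tether in another way, since a factor fused to Sir4 brings the integrase to the DNA the factor occupies while the native SIR4 gene is absent. Chromosome ends in yeast hold repeated gene families such as the seripauperins, COS genes and Y' helicases, together with genes for sugar, metal, vitamin and nitrogen use that are often silent in rich medium.

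The outermost listed edge is not the telomere. On left arms it stood at coordinate 2078 to 21850, with a median of 8058, and 98 of the 155 regions at left ends lay within 30 kb of coordinate 1. In a gene table of the R64 assembly, 0 to 9 genes (median 2) lay further out than the outermost flanking gene. End regions were longer than inside regions, with a median of 623 bp against 414 bp. Orientation was alike, with the promoters of both neighbours in 26.0% of end regions and 25.7% of inside regions, 1 promoter in 47.6% and 48.6%, and no promoter in 26.4% and 25.7%.

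The background set held 4223 insertions in the end regions, 12.6 per kb, and 49849 inside, 15.5 per kb. Density in the background was 11.7 per kb within 10 kb of the outermost edge, 12.1 between 10 and 20 kb and 14.4 between 20 and 30 kb, against 15.8 beyond 100 kb. On the regions shared by all tables, the end density over the inside density was 0.836 in the set of 84109 insertions used by 15 tables and 0.743 in the set of 103922 used by the Gal4 table. End regions with no background insertion numbered 31 (10.5%), against 508 inside (11.4%), and 12 end regions were at 0 in the background and in every library. The region with the most background insertions was SRY1/JEN1 (chromosome XI 18339 to 22234) with 124, followed by ADH4/ZRT1 with 78, ECM32/BMH1 with 75, AAD4/LRG1 with 71 and BIO2/IMA1 with 64.

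Each library's insertions at the ends were set against its insertions inside, both relative to background. The end-over-inside ratio is library insertions over background insertions in the end regions, divided by the same quotient inside. Its interval lay below 1 in 11 libraries, above 1 in 2 and across 1 in 3, with a median of 0.662. Cha4, which activates the breakdown of serine and threonine, had 2708 insertions in the end regions and a ratio of 3.04 (2.90 to 3.19). Tea1, a zinc cluster activator first found at Ty1 enhancers, had 3186 and a ratio of 1.51 (1.45 to 1.59). Lys14, the regulator of lysine synthesis, stood at 1.04 (0.980 to 1.10) and Cat8, the activator of gluconeogenesis, at 1.002 (0.943 to 1.06). Aro80, the activator of aromatic amino acid breakdown, stood at 0.407 (0.374 to 0.442). The other factors were at 0.820 (Put3), 0.784 (Urc2), 0.718 (Yrr1), 0.607 (Yrm1), 0.575 (Leu3) and 0.575 (Hal9). The Gal4 libraries stood at 0.251 (0.202 to 0.309) in hmo1Δ, 0.994 (0.905 to 1.09) in leu3Δ, 0.304 (0.264 to 0.348) in sef1Δ and 0.271 (0.227 to 0.320) in yrm1Δ, against 0.293 (0.264 to 0.325) in the Gal4 library itself.

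**Figure D1:**
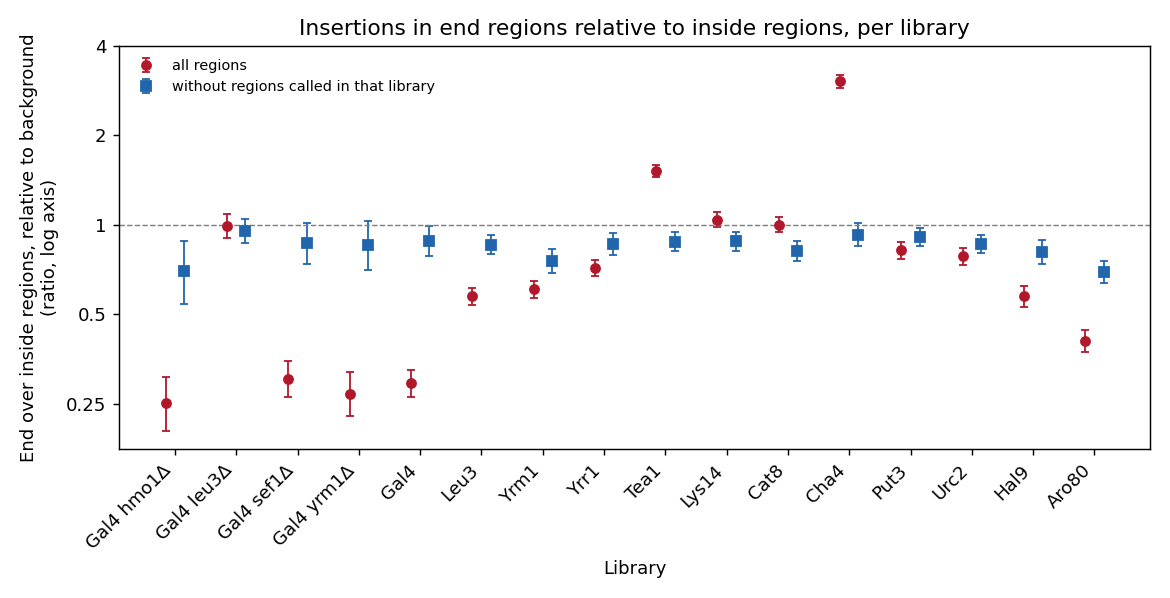
End-over-inside ratio per library (log axis), for all regions (red circles) and without the regions called in that library (blue squares), with 95% counting intervals. Cha4 at 3.04 and Tea1 at 1.51 lie above 1 with all regions, and every library lies between 0.694 and 0.955 without its called regions.

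The libraries stood closer together once called regions were left out. Called regions were those with 5 or more library insertions and a deposited hypergeometric p no higher than 0.001. Without the regions called in each library, ends and inside alike, all 16 ratios were under 1, with a median of 0.864 and a range from 0.694 (Aro80) to 0.955 (leu3Δ), and 12 intervals lay below 1. Cha4 was then at 0.927 (0.849 to 1.01) and Tea1 at 0.879 (0.814 to 0.948), so that Tea1's ratio turned from above 1 to below it. The direction of Tea1 also turned in the outermost 10 kb alone, at 0.852 (0.779 to 0.930). Called end regions held 78.1% of Cha4's end insertions and 74.3% of Tea1's. With a 50 kb window the ratios of Gal4, hmo1Δ, sef1Δ and yrm1Δ were 1.42, 1.37, 1.32 and 1.36, and the band from 30 to 50 kb held 2.66-fold (Gal4) to 2.95-fold (hmo1Δ) its background share in these 4 libraries. The uncalled regions of that band alone stood at 0.796 in Gal4, 0.881 in hmo1Δ, 0.689 in sef1Δ and 0.768 in yrm1Δ.

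Uncalled regions were lowest in the outermost 10 kb. There the fold of uncalled regions over their background share had a median of 0.648 over the libraries, from 0.463 in Yrm1 (0.383 to 0.554) to 0.873 in leu3Δ (0.740 to 1.02). It was under 1 in 16 of 16 libraries, with the interval below 1 in 15. Between 10 and 20 kb the median was 0.997 (range 0.784 to 1.24), under 1 in 9 libraries, and between 20 and 30 kb it was 0.982 (0.717 to 1.11), under 1 in 10. Between 30 and 50 kb it was 0.913 (0.689 to 1.02), under 1 in 15 libraries and with 7 intervals below 1, and between 50 and 100 kb 0.965 (0.835 to 1.06), under 1 in 12 with 3 intervals below 1. Beyond 100 kb it was 1.03 (0.997 to 1.07). The 16 libraries share their background, or in the Gal4 library a second one, so these folds are not independent of each other.

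**Figure D2:**
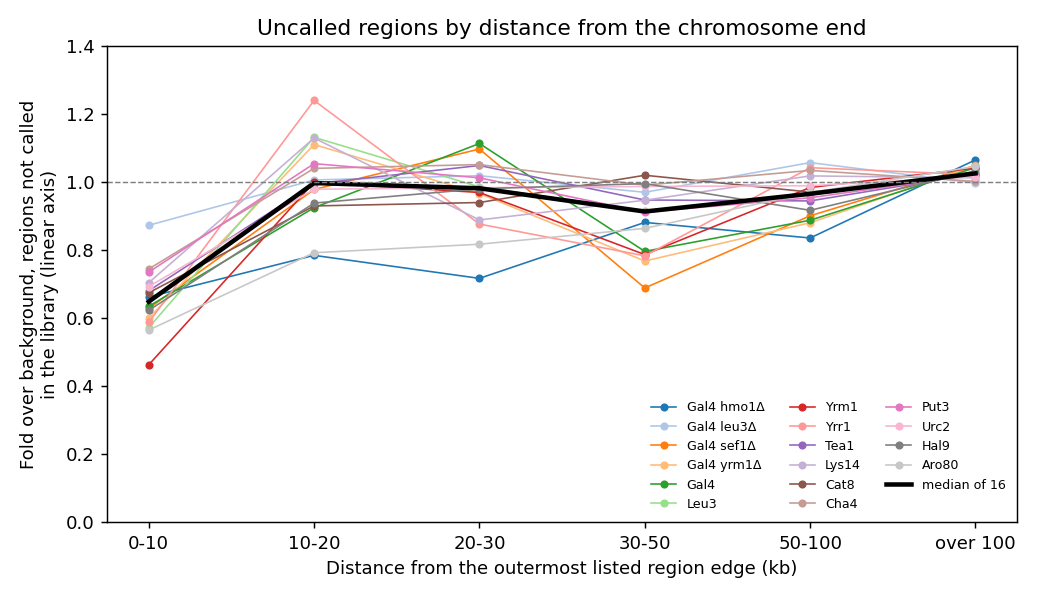
Fold over background of uncalled regions (linear axis, relative to all uncalled regions of the library) in 6 bands of distance from the outermost listed edge, 1 line per library and the median in black. All 16 lines lie below 1 in the outermost 10 kb, where the median is 0.648.

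For at least 1 of the 12 factors, 42 end regions were called (14.2%), against 494 inside regions (11.1%), where 11.3% of all 4740 regions were called. For 2 or more factors, 10 end regions were called (3.38%), against 169 inside (3.8%) and 3.78% of all regions. For 3 or more, the numbers were 5 (1.69%) and 80 (1.8%), with 1.79% over all regions. The shares at the ends were thus near those of the whole table. By distance, 10 of 94 regions (10.6%) were called within 10 kb, 15 of 88 (17.0%) from 10 to 20 kb and 17 of 114 (14.9%) from 20 to 30 kb. By orientation, 15 of 77 end regions with the promoters of both neighbours were called (19.5%), 23 of 141 with 1 promoter (16.3%) and 4 of 78 with none (5.13%). Shares by orientation were not computed for inside regions, so this order was not shown to be particular to the ends.

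**Figure D3:**
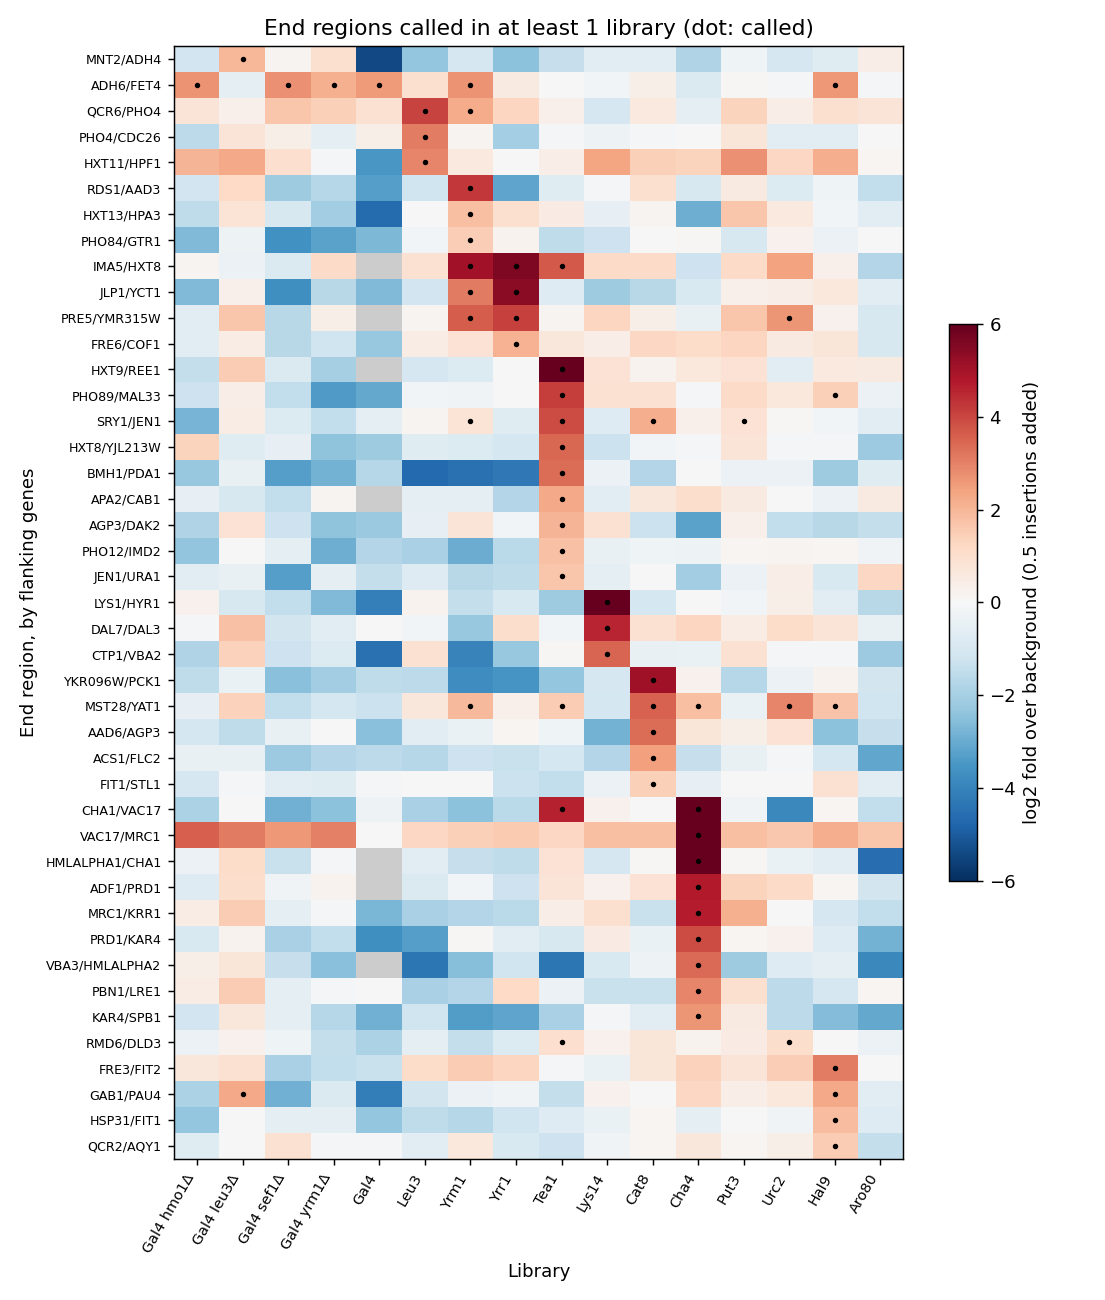
Log2 fold over background (0.5 insertions added) of the 43 end regions called in at least 1 library, in the 16 libraries, with a dot where called and grey where the Gal4 table has no such region. Most regions are dotted in a single column, and MST28/YAT1 and ADH6/FET4 carry 6 dots each. VAC17/MRC1 has 0 background insertions, so its colours outside Cha4 rest on the added 0.5.

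Chromosome III left held most of Cha4's end insertions. Cha4 was called at 10 end regions, with 0.633% of all regions called in that library. CHA1/VAC17 (chromosome III 16880 to 17290), the divergent promoter of the serine and threonine deaminase gene CHA1, held 1273 Cha4 insertions against 22 in the background, a fold of 266 (175 to 426). The next region outwards, HMLALPHA1/CHA1 (13809 to 15798), which holds no promoter and borders the silent cassette HML, held 602 against 38, a fold of 72.8 (52.4 to 104). VBA3/HMLALPHA2 (9706 to 12386), on the telomeric side of HML, held 53 against 23, a fold of 10.6 (6.38 to 18.1). On the inner side, ADF1/PRD1 held 62 against 10 (28.5-fold) and PRD1/KAR4 held 37 against 11 (15.5-fold). PRD1 encodes a metallopeptidase and KAR4 a regulator of mating and meiosis.

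Other regions of this end were named after their values were seen. VAC17/MRC1 held 18 Cha4 insertions against 0 in the background. With a floor of 3 background insertions its fold was 27.6, and the lower limit of its counting interval was 20.2. MRC1/KRR1 held 25 against 4, KAR4/SPB1 18 against 13 (6.37-fold) and PBN1/LRE1 7 against 4 (8.05-fold). KRR1/FYV5, with 6 against 5, was not called. In all, 9 of the 13 regions at the left end of III were called for Cha4, which held 2101 insertions there against 130 in the background, a ratio of 76.6 to its inside regions. Without chromosome III, Cha4's end-over-inside ratio was 0.707 (0.647 to 0.771), on the other side of 1.

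Tea1 used the same promoter with little in its surroundings. At CHA1/VAC17 it held 231 insertions, a fold of 24.7 (15.95 to 40.3), and in the other 10 factor libraries that region held 0 (Urc2) to 7 (Lys14) insertions, at folds of 0 to 1.13. Relative to the library's uncalled regions, the 9 regions within 15 kb of CHA1/VAC17 stood at 50.5 (41.1 to 62.5) in Cha4, with 821 insertions against 104 in the background and 7 called. The same 9 regions stood at 1.62 (1.10 to 2.34) in Tea1, with 41 insertions and 0 called. HMLALPHA1/CHA1 alone held 602 of the 821 in Cha4, with 38 of the 104 in the background, and 29 of the 41 in Tea1. The peaks were unequal, and the flank came to 64.5% of the insertions at CHA1/VAC17 in Cha4 and 17.7% in Tea1. The flank of Cha4's inside target AIM9/SER3 had 159 insertions in 11 regions, at 9.08 (7.08 to 11.7), with 4 called. Raised flanks were not limited to this end, as examples chosen after their values were seen show. Tea1's end region HXT9/REE1 had a flank at 8.14 (6.13 to 10.9), with 2 of 9 regions called. Those 2, HXT8/YJL213W with 99 and IMA5/HXT8 with 29, held most of its 149 insertions, so this flank includes other called regions. Further inside, the flank of SPL2/ARO9 stood at 30.2 (26.0 to 35.2) in Aro80, with 13 of 16 called. In Tea1 the flanks of VMA13/YPR036W-A and ARP7/GLN1 stood at 31.3 and 30.6, but these regions are neighbours on chromosome XVI. The flank of VMA13/YPR036W-A, with 1292 insertions, includes the 1181 at ARP7/GLN1. That of ARP7/GLN1, with 942, includes the 806 at VMA13/YPR036W-A, so neither is a flank without another peak.

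**Figure D4:**
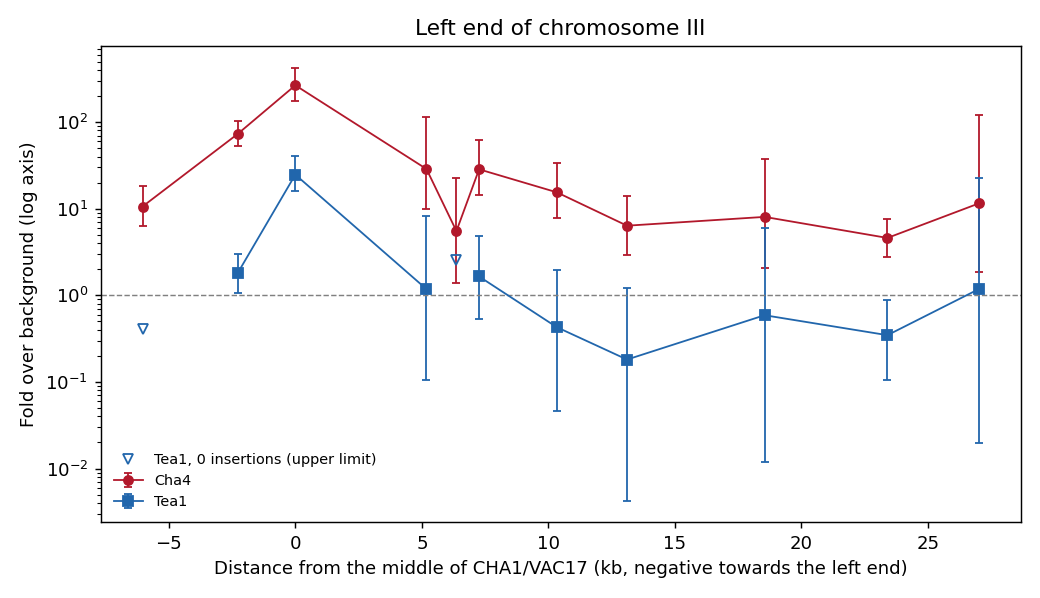
Fold over background (log axis, 95% counting intervals) of regions at the left end of chromosome III against distance from the middle of CHA1/VAC17, for Cha4 (red) and Tea1 (blue), with upper limits where Tea1 held 0 insertions. Both libraries peak at CHA1/VAC17, at 266 and 24.7, and Cha4 stays above 1 over the whole stretch shown. Regions with 0 background insertions are left out.

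The 5 regions flanking the silent mating cassettes stood under the inside level in 13 of the 15 libraries whose tables list them. HMLALPHA2/HMLALPHA1 and HMRA2/HMRA1, the divergent promoters of the cassettes, held 0 and 1 background insertions, and 0 to 2 insertions in any library. HMRA1/GIT1 (chromosome III 294321 to 297049) held 47 background insertions and was not called in any of these libraries. It was highest in leu3Δ, with 12 insertions and a fold of 2.23 (1.08 to 4.27). Over the 5 regions the ratio to inside regions had a median of 0.552, from 0.265 in Yrm1 to 28.9 in Cha4, and leu3Δ was the other library above 1, at 1.89. Most of the Cha4 insertions in these regions lay in HMLALPHA1/CHA1 (602), next to CHA1/VAC17. VBA3/HMLALPHA2 held 53 and HMRA1/GIT1 held 8 in Cha4. The cassettes are near-copies of the mating-type locus, so insertions in their shared parts cannot be assigned with certainty.

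Tea1 was called at 13 end regions, the most of any library (2.38% of all regions called). SRY1/JEN1 held 784 insertions against 124, a fold of 14.9 (12.3 to 18.2). JEN1 encodes the lactate and pyruvate permease. HXT9/REE1 (chromosome X 21200 to 23133) held 526 against 16, a fold of 77.5 (47.3 to 137), next to the hexose transporter gene HXT9. By the R64 table this interval also spans YJL218W, so its insertions cannot be assigned to HXT9. PHO89/MAL33, between a phosphate transporter gene and a maltose activator gene, held 321 against 42 (18.0-fold). BMH1/PDA1, at a 14-3-3 protein gene and the gene of a pyruvate dehydrogenase subunit, held 129 against 29 (10.5-fold), while Leu3, Yrm1 and Yrr1 held 0 insertions there. The other regions called for Tea1 held 29 to 99 insertions besides CHA1/VAC17, with HXT8/YJL213W at the top (11.1-fold).

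SRY1/JEN1 was called for 4 factors in all. Cat8 held 159 insertions there (4.51-fold, 3.54 to 5.75), Yrm1 81 (1.75-fold, 1.31 to 2.34) and Put3 64 (1.83-fold, 1.33 to 2.49). The other 8 factor libraries stood at 0.570-fold to 1.22-fold. Put3, the proline use activator, had no other called end region, with 0.549% of all regions called.

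Cat8 was called at 6 end regions (1.37% of all regions). Its strongest was YKR096W/PCK1 (chromosome XI 630380 to 631152), upstream of the gluconeogenic PEP carboxykinase gene, with 167 insertions against 17, a fold of 34.5 (20.9 to 60.7). The 11 other factor libraries stood at 0 to 1.08-fold there. MST28/YAT1, at a carnitine acetyltransferase gene, held 85 against 25 (11.9-fold, 7.57 to 19.5). ACS1/FLC2, at an acetyl-CoA synthetase gene, held 64 against 41 (5.48-fold), and FIT1/STL1, at an iron mannoprotein gene and a glycerol symporter gene, 46 against 61 (2.65-fold). AAD6/AGP3 was also called, with 36 against 12 (10.5-fold).

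MST28/YAT1 (chromosome I 188811 to 190193) was called for the most factors of any end region, 6 of 12. Besides Cat8, Urc2 held 62 insertions (7.60-fold), Yrm1 36 (3.86-fold), Tea1 31 (2.92-fold), Cha4 19 (3.49-fold) and Hal9 18 (3.23-fold). The uncalled factor libraries ranged from 0.374-fold to 1.59-fold.

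The related drug resistance regulators Yrm1 and Yrr1 were called at 10 and 4 end regions, with 2.38% and 1.84% of all regions called. JLP1/YCT1 (chromosome XII 26994 to 30109), between a sulfonate dioxygenase gene and a cysteine transporter gene, held 125 Yrm1 insertions (8.82-fold, 6.09 to 13.0) and 560 Yrr1 insertions (43.8-fold, 31.5 to 62.5) against 38. By the R64 table this interval also spans YLL056C, so its insertions cannot be assigned to a single gene. IMA5/HXT8, the divergent promoter of an isomaltase gene and a hexose transporter gene, held 66 for Yrm1 (35.4-fold), 89 for Yrr1 (52.9-fold) and 29 for Tea1 (13.7-fold) against 5. PRE5/YMR315W, between a proteasome subunit gene and YMR315W, held 44 for Yrm1 (13.1-fold), 55 for Yrr1 (18.2-fold) and 19 for Urc2 (6.47-fold) against 9. The outermost listed region of III right, RDS1/AAD3 (313456 to 313890), held 94 insertions for Yrm1 (19.4-fold, 10.8 to 37.8) and 0 for Yrr1. It lies between the gene of another zinc cluster factor and an aryl-alcohol dehydrogenase gene. Yrr1's remaining call was FRE6/COF1 with 13 against 9 (4.29-fold).

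Lys14 was called at 3 end regions (1.03% of all regions), of which 2 lie at the right end of IX. LYS1/HYR1 (chromosome IX 420736 to 423128), at the saccharopine dehydrogenase gene LYS1, held 492 insertions against 25, a fold of 69.6 (46.6 to 109). The interval also spans NRE1 and IRC24. DAL7/DAL3, between genes of allantoin breakdown, held 43 against 6 (25.3-fold, 10.7 to 72.9). CTP1/VBA2, at a mitochondrial citrate carrier gene, held 68 against 21 (11.5-fold). Leu3, the regulator of branched-chain amino acid synthesis, was also called at 3 (2.28% of all regions). PHO4/CDC26 and QCR6/PHO4, on both sides of the phosphate regulator gene PHO4 on chromosome VI, held 197 against 54 (8.51-fold) and 75 against 10 (17.5-fold), and HXT11/HPF1 held 14 against 4 (8.16-fold).

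Hal9, a regulator of salt tolerance, was called at 7 end regions (2.05% of all regions), and Urc2, the regulator of uracil breakdown, at 3 (1.08%). Hal9's called regions held 18 to 61 insertions and 2.67 to 8.57-fold. FRE3/FIT2 held 21 against 11 (8.57-fold), HSP31/FIT1 24 against 30 (3.59-fold) and GAB1/PAU4 24 against 22 (4.89-fold). Besides MST28/YAT1 and PRE5/YMR315W, Urc2 was called at RMD6/DLD3 with 37 against 54 (2.10-fold). Aro80 was called at 0 end regions, with 1.41% of all regions called.

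ADH6/FET4 (chromosome XIII 912143 to 912880), between an alcohol dehydrogenase gene and a low-affinity iron transporter gene, was the end region of Gal4. It was the only end region called in the Gal4 library, where 1.78% of the regions shared by all tables were called. Insertions there numbered 24 in hmo1Δ (6.47-fold), 3 in leu3Δ, 50 in sef1Δ (6.73-fold) and 24 in yrm1Δ (4.36-fold), against 84 in the Gal4 library (5.90-fold, 4.05 to 8.70). In hmo1Δ, sef1Δ and yrm1Δ it was also the single called end region, with 1.22%, 1.92% and 1.5% of all regions called. Yrm1 held 109 insertions (6.497-fold) and Hal9 61 (6.08-fold), and the uncalled factor libraries stood at 0.511-fold to 1.97-fold.

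Gene lists differed in how far below the inside level they stood. The lists group end regions by a flanking gene on either side, whether or not the region holds that gene's promoter, and a region can be in more than 1. The lowest was the enolase-related ERR genes, with 95 background insertions in 4 regions and a median ratio of 0.0108, from 0 to 0.150 (Cha4). Thiamine and vitamin B6 genes stood at a median of 0.205 in 12 regions, Y' helicase genes at 0.247 in 6, seripauperin genes at 0.251 in 22, COS genes at 0.337 in 13 and flocculin genes at 0.382 in 4. Of the 62 background insertions of the thiamine and vitamin B6 list, HXT15/THI13 held 19 and THI11/HXT16 held 12. Both regions held 0 in the second set. In these 6 lists, 1 of the regions, GAB1/PAU4, was called for any factor. Aryl-alcohol dehydrogenase genes stood at 0.472 in 11 regions, with 2 called. Hexose transporter genes had a median of 0.551 in 13 regions but reached 8.47 in Tea1, with 5 called, and maltose and isomaltose genes had 0.666 in 20 regions, with 2 called. Most of the Tea1 insertions in the hexose transporter list lay in HXT9/REE1 (526) and HXT8/YJL213W (99). Each of these regions holds 1 promoter, so the value does not show binding at hexose transporter promoters. Amino acid and carboxylate use genes had 0.582 in 16 regions, with 8 called, and reached 24.8 in Cha4 and 8.76 in Tea1. Metal uptake and arsenic genes had 0.703 in 25 regions, with 5 called, and stayed between 0.419 (Aro80) and 1.14 (Hal9). The list of phosphate genes covers PHO89, PHO12 and GIT1 at the ends and leaves out the regions at PHO4 and PHO84. It had 0.739 in 4 regions, with 2 called, and reached 6.09 in Tea1. The list of other dehydrogenase genes had 0.804 in 9, with 2 called. The share of all regions called for at least 1 factor was 11.3%.

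**Figure D5:**
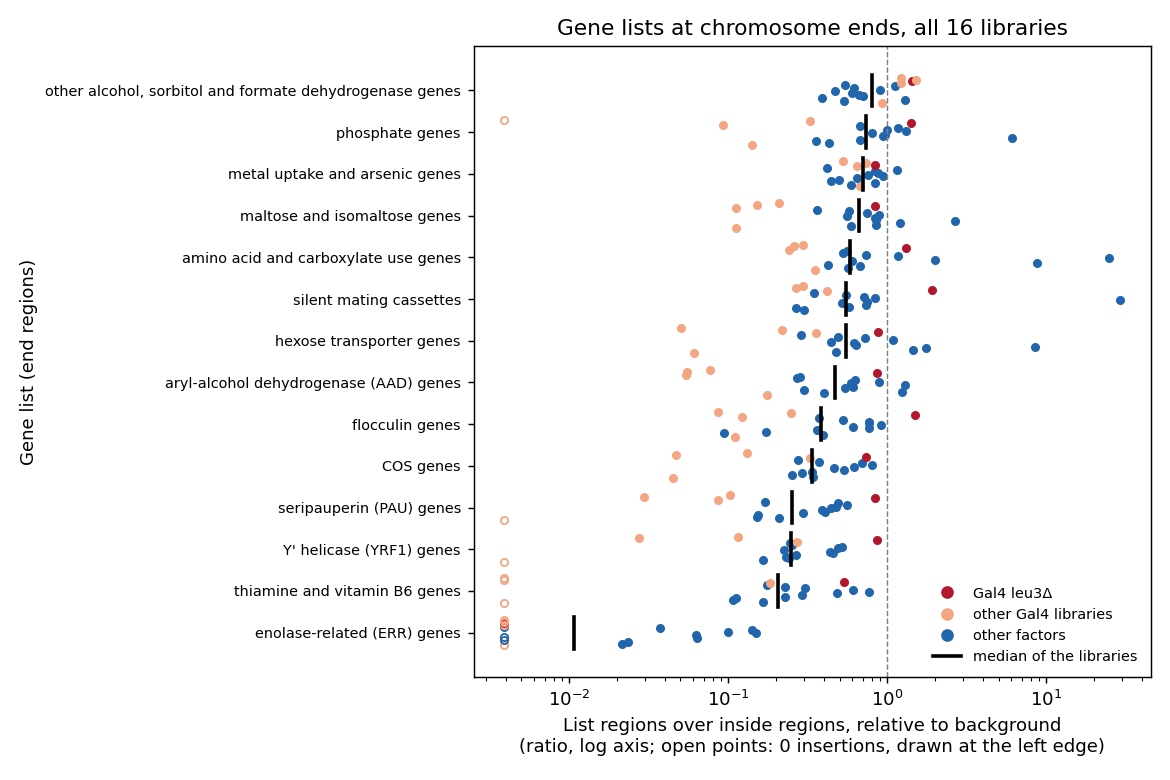
Ratio of each list's end regions to all inside regions, relative to background (log axis), 1 point per library and a bar at the median. Medians run from 0.0108 for the enolase-related genes to 0.804 for the other dehydrogenase genes, and in most lists leu3Δ (dark red) lies right of the other Gal4 libraries (pale). Silent cassettes have no value in the Gal4 library.

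Uncalled regions of repeated families were low in the outermost 10 kb. The 9 lists of repeated families cover 78 end regions, whose uncalled ratio had a median of 0.715 (0.339 to 0.870) with all 16 intervals below 1. The other 218 end regions had a median of 0.919 (0.754 to 1.13), under 1 in 11 libraries and with 6 intervals below 1. Within 10 kb the medians were 0.561 in 53 repeated-family regions and 0.781 in 41 others, and the others were under 1 in 14 libraries. Further in this order did not hold throughout: the medians were 0.935 in 21 repeated-family regions and 1.02 in 67 others from 10 to 20 kb, and 1.25 in 4 and 0.973 in 110 from 20 to 30 kb. Background density was 9.16 per kb in the repeated families and 15.3 per kb in the other end regions. The families hold near-identical copies, and how reads that match several copies were placed is not given in the sources used here, so values for single copies are uncertain.

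Single regions of these families stood near 0 in every library while the background held insertions. With the 15 libraries of the shared background summed and called libraries left out, 12 of 143 end regions with at least 10 background insertions had under 0.25 of the insertions that their background share gives (8.39%), against 57 of 1519 inside (3.75%). Of the 12, 9 were among the 49 such regions in repeated families (18.4%) and 8 among the 55 within 10 kb of the end (14.5%). End and inside regions were admitted by their count in the same background that gives the expected insertions. Such a filter favours low ratios, and by how much was not tested. Those of the 12 that the Gal4 table also lists all held fewer insertions in the second background set. The following were named after their values were seen. ERR1/PAU21 (chromosome XV 1081589 to 1082718) and PAU22/ERR2 (chromosome XVI 8427 to 10870) held 0 insertions in 15 libraries against 20 in the background each, where 53.1 would match the background share. HSP33/ERR1 held 2 against 29 in the background, THI11/HXT16 1 against 12, and HXT15/THI13 2 against 19. The second background set held 3, 0 and 0 insertions at these last regions. RPC82/QCR2, outside the families, held 1 against 11, with 9 in the second set.

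The chromosome ends differed among themselves. The median ratio over libraries was below 1 at 31 of 32 ends, and at 25 without called regions. With called regions the exception was XIII right, at 1.05, which holds ADH6/FET4 and PRE5/YMR315W. Without them XIII right was at 0.915, and 7 other ends stood above 1, the highest being IX left (1.30) and X left (1.15). With called regions, the ratio of XIII right was 2.18 in hmo1Δ, 0.757 in leu3Δ, 2.26 in sef1Δ and 1.60 in yrm1Δ, against 2.85 in the Gal4 library. Its highest was 2.95 in Yrm1. By the median with called regions, X left (0.775), IX left (0.751) and II right (0.676) came next. X left reached 14.9 in Tea1, with 675 insertions against 91 in the background, and II right reached 3.85 in Tea1. The lowest medians were 0.208 at XVI left, 0.225 at IV left, 0.259 at XII right and 0.278 at XIV left. At XVI left all 16 libraries were under 1, from 0 in sef1Δ to 0.657 in Cha4. At IX right the median was 0.425 but Lys14 stood at 22.7, with 577 insertions against 76 in the background. VIII right holds 1 region, PHO12/IMD2.

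The Gal4 libraries with a further deletion were set against the Gal4 library on the 254 end regions shared by all tables. In leu3Δ, ends held 438 insertions and 7.16% of those in the regions, against 397 and 1.996% in the Gal4 library, a deletion-over-Gal4 ratio of 3.79 (3.30 to 4.35) relative to inside. In sef1Δ the ratio was 1.25 (1.06 to 1.48), with 211 insertions. In hmo1Δ it was 0.983 (0.768 to 1.25) and in yrm1Δ 1.03 (0.833 to 1.26), with 85 and 125 insertions. Outside the regions called in the Gal4 library, the leu3Δ ratio was 1.26 (1.09 to 1.46) and that of sef1Δ 1.05 (0.862 to 1.27). In the leu3Δ library 7 of all 4740 regions were called (0.148%), of which 2 lie at the ends, and with a 50 kb window its ratio was 0.738 (0.680 to 0.799).

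Region by region, a two-sided Fisher's exact test with Benjamini-Hochberg adjustment over all regions tested compared these libraries, which is not a test of the deletions. In leu3Δ, 9 of 16 tested end regions were higher and 1 was lower, where 29.6% of the 324 regions tested were higher and 20.7% lower. The median log2 ratio (0.5 insertions added) was 1.84 at the ends and 0.67 over all tested regions. MNT2/ADH4 (chromosome VII 14157 to 15159) lies at a mannosyltransferase and an alcohol dehydrogenase gene. It held 18 insertions in leu3Δ against 0 in the Gal4 library, with an adjusted p of 2.72e-11. With a floor of 3 insertions in the Gal4 library it was 21.0-fold higher, and the lower limit of its counting interval was 15.4-fold. GAB1/PAU4 held 12 against 0, with an adjusted p of 1.48e-07. With the same floor it was 14.0-fold higher, and the lower limit of its counting interval was 9.71-fold. MNT2/ADH4 also held 1 insertion in hmo1Δ, 7 in sef1Δ and 9 in yrm1Δ, too few to be tested in those libraries. The difference from the 0 of the Gal4 library was therefore not shown to be particular to leu3Δ at this region. GAB1/PAU4 held 0 in hmo1Δ, 0 in sef1Δ and 1 in yrm1Δ. Both regions were also the end regions called in leu3Δ over background. ADH6/FET4 was lower, with 3 against 84, a ratio of 0.125 (0.0252 to 0.377) and an adjusted p of 1.06e-05.

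The other higher regions of leu3Δ held few insertions. FLO9/GDH3 held 11 against 3, ADH4/ZRT1 10 against 3, BIO2/IMA1 9 against 2, AAD4/LRG1 9 against 4, MST28/YAT1 7 against 4, RMD6/DLD3 7 against 5, and SRY1/JEN1 19 against 25 in the larger Gal4 library (2.66-fold). Scaled to the regions not called in Gal4, only MNT2/ADH4 and GAB1/PAU4 stayed higher, 4 end regions were lower, and SRY1/JEN1 turned to the lower side with an adjusted p of 0.327. In hmo1Δ, sef1Δ and yrm1Δ, 0 of 6, 10 and 8 tested end regions passed in either direction. At an unadjusted p under 0.05 the numbers were 0, 3 and 0, the 3 of sef1Δ being higher. Over all tested regions, 6.79% were higher and 1.36% lower in hmo1Δ, 11.1% and 3.97% in sef1Δ, and 7.39% and 4.35% in yrm1Δ.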

How the data were processed

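The authors deposited a table per library with a count of insertions per region for the library and for a background set. Each count is also given as a fraction of all insertions of its set, with a hypergeometric and a Poisson p-value, per the file headers. Per the submitters' processing notes, Novoalign and the sacCer2 build were used, and versions are not given in the sources used here. Totals ran from 6932 (hmo1Δ) to 36063 (Leu3) insertions per library. The background set held 84109 insertions in 15 tables and 103922 in the Gal4 table, which lists its own regions. Regions were matched by both flanking genes, which found 254 of the 296 end regions and 4383 of all 4740 nuclear regions in the Gal4 table. The 8 regions of the mitochondrial genome and the 2-micron plasmid were not used. For the Leu3 table the deposited hypergeometric p-value was recomputed from the counts to within 5.91e-10.

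A fold is the share of all library insertions over the share of all background insertions. Ratios of pooled regions carry exact conditional binomial 95% intervals with the inside counts taken as fixed, and no p. Deletion libraries were compared with the Gal4 library by Fisher's exact test where both libraries together held 10 or more insertions, with a threshold of 0.05 on the adjusted p, and with an exact binomial test when rescaled. These tests compare libraries, not strains, since each group has 1 library, and edgeR has no residual degrees of freedom here. The PCR used no molecular tags, so intervals cover counting error only. A floor (3 insertions) stands in for an empty count and leaves out the counting error of the other count. The scripts were tested on simulated data. Gene names and neighbours, without coordinates, came from a table of the R64 assembly. Python 3.11.15, numpy 2.4.6, pandas 2.3.3, scipy 1.17.1 and matplotlib 3.10.9 were used.

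The members, the 14 gene lists and the tests were chosen with earlier results of these data known. Regions named were the 5 called end regions with the most insertions per library, end regions called for 3 or more factors, the 10 largest called changes each way in a deletion library, the 5 with the most background insertions, those at the silent cassettes and up to 3 examples per list, with the 4 highest and 4 lowest ends. Exceptions are marked as named after their values were seen. Alternatives covered the window, the threshold, the p-value column, the minimum of insertions, the scaling and the regions left out.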

Additional observations from a re-analysis of the deposited data

Results flagged for a closer look

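The ratio of end over inside regions in the Cha4 library, 3.04, stood on the other side of 1 from the median of the libraries, and the difference between libraries was not tested. The Tea1 ratio, 1.51, did so as well, and that difference was not tested either. The leu3Δ library had a ratio of 3.79 to the Gal4 library at the ends, where hmo1Δ and yrm1Δ had intervals across 1, and the difference between the deletion libraries was not tested. Outside the nuclear chromosomes, the 8 mitochondrial and 2-micron plasmid regions held 10 insertions in the Yrr1 library, against 0 in the background.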

How the results depend on the processing

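The median ratio over the libraries stayed under 1 in every setting tried, from 0.361 to 0.929, while the number of libraries with an interval above 1 (2 as reported) was 1 with a 10 kb window or without chromosome III, 6 with a 50 kb window, 0 without called regions, and 4 with all insertions as the denominator. Among settings chosen after seeing the data it was 4 without repeated families, and without called regions and repeated families it was 0, with 6 intervals below 1. Ratios that crossed 1 were Tea1 at 0.852 (10 kb) and 0.879 (without called regions), Cha4 at 0.707 (without chromosome III), and, with a 50 kb window, Gal4 at 1.42, hmo1Δ at 1.37, sef1Δ at 1.32 and yrm1Δ at 1.36. Against the Gal4 library, leu3Δ stood at 6.64 (10 kb), 0.738 (50 kb) and 1.26 (without Gal4-called regions), and sef1Δ at 1.05 without them. For leu3Δ, 23 end regions were higher with at least 5 insertions, 1 with at least 20 (fewer regions tested) and 2 when scaled to regions not called in Gal4. The lower ones then numbered 4, and 2 when scaled to the median ratio. SRY1/JEN1 turned with an adjusted p of 0.327, and sef1Δ and yrm1Δ each had 1 higher region with at least 5 insertions. End over inside density was 0.797 (20 kb) and 0.882 (50 kb) in the background of 84109, and 0.676, 0.703 and 0.817 (10, 20 and 50 kb) in that of 103922. Apart from what the settings remove by construction, the cause was not tested. The end regions called for at least 1 factor numbered 37 to 53. No paired analysis was possible because each group has 1 library. In the deletion libraries, 6 to 16 end regions held enough insertions to be tested.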
